A study of Mus musculus with 10 samples.

Results

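The oxidative burst of a macrophage is made by one enzyme, the NADPH oxidase, and is cleared by several others. Called peaks of the NF-κB subunit p65 were examined at 9 genes of these systems: the NADPH oxidase genes Cybb, Cyba, Ncf1, Ncf4 and Rac2, and the clearing genes Sod1, Sod2, Cat and Prdx1. A peak was counted for a gene when it overlapped the gene body or the 10 kb on either side of it in the mouse assembly GRCm38. By this rule 390 of the 536143 peaks in the lists of 9 libraries lay at the 9 genes, out of 21887 protein-coding genes in all. The libraries were CUT&Tag libraries, in which an antibody brings a transposase to a bound protein and the released DNA fragments are sequenced. All of them were made from RAW264.7, an established male mouse line with macrophage properties that arose in an Abelson virus tumour, and all carried the wild-type genotype. Treatment lasted 12 h. One group received DMSO alone, the vehicle, another received DMSO together with lipopolysaccharide (LPS, from the outer membrane of Gram-negative bacteria), and the third received LPS together with skatole (LPS+Skatole), a tryptophan product of gut bacteria. Each group had 3 libraries of 200000 cells each, and doses are not in the labels. The antibody is labelled as p65 and is given as one against phosphorylated p65 in the study's methods. A Blank sample without primary antibody was not analysed here, and no comparison with signal in the absence of antibody was made.

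In a resting phagocyte the oxidase lies in pieces. Its membrane part holds the catalytic subunit gp91phox, encoded by Cybb, and its partner p22phox, encoded by Cyba. The cytosolic part holds p47phox (Ncf1) and p40phox (Ncf4), which join the membrane part together with the GTPase Rac2 when the cell is stimulated, and the assembled enzyme passes electrons from NADPH to oxygen to form superoxide. Superoxide is turned into hydrogen peroxide by Sod1 in the cytosol and Sod2 in mitochondria, and hydrogen peroxide is removed by the catalase Cat in peroxisomes and by peroxiredoxin 1 (Prdx1) in the cytosol. LPS activates NF-κB, which binds κB sites, and Sod2 is a well known NF-κB target.

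The 250 bases before the gene start were taken from RefSeq (GRCm38.p6) for 7 of the 9 genes. Ncf4 and Rac2 had no entry in that table. The 5 sequences below belong to the genes on which the results turn: Prdx1 and Cat changed most with skatole, Cyba had the best-ranked peak in most libraries, Sod2 carries a κB match, and at Cybb the window was covered by peaks in the LPS+Skatole libraries alone. Each is written 5′ to 3′ in the direction of transcription, and capitals mark matches on either strand to the κB consensus, to the core of the antioxidant response element (TGACNNNGC) or to the AP-1 site (TGANTCA).
Prdx1, chr4:116685349-116685598, plus strand: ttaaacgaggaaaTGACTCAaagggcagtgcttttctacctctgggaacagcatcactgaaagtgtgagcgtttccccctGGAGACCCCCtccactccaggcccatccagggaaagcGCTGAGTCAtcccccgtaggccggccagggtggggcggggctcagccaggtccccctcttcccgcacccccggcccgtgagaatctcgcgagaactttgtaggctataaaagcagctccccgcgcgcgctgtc
Sod2, chr17:13007589-13007838, plus strand: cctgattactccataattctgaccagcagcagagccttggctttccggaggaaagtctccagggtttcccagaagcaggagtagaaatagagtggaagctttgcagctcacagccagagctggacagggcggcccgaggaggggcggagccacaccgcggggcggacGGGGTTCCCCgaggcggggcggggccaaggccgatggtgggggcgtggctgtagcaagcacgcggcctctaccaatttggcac
Cybb, chrX:9469325-9469574, minus strand: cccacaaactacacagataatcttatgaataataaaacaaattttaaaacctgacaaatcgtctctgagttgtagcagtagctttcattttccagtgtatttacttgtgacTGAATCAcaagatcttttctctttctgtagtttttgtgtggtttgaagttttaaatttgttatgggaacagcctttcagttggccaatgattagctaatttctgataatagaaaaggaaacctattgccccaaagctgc
Cat, chr2:103485154-103485403, minus strand: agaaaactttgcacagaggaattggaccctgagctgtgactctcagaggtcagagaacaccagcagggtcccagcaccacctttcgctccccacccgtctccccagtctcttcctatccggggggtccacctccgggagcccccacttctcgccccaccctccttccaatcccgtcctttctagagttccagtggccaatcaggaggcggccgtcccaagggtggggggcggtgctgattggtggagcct
Cyba, chr8:122432941-122433190, minus strand: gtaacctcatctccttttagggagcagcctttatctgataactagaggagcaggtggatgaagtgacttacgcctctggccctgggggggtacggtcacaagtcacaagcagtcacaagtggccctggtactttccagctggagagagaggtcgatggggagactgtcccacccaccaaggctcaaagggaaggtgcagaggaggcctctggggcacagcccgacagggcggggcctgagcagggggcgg
The κB consensus was found in 2 of the 7 windows, Prdx1 at bases -170 to -161 and Sod2 at bases -83 to -74 from the start, and in 3.90% of all 32817 promoter windows of the same length. The Sod2 match reads the same motif on both strands. The antioxidant core was found at Prdx1 (bases -133 to -125) and Sod1 (bases -56 to -48), against 10.2% of all windows. The AP-1 site was found at Prdx1 (bases -237 to -231, and bases -131 to -125 inside the antioxidant match) and at Cybb (bases -139 to -133), against 6.75% of all windows. The windows of Cyba, Ncf1 and Cat held none of the 3 motifs. A match describes the letters and not a bound site.

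Lengths and depths of the lists differed between the groups, which bears on every count below. The lists held 37551 to 43450 peaks in DMSO, 55637 to 63498 in LPS and 78136 to 80153 in LPS+Skatole. The lists give no read totals, and depth was read from the genome background, the background value that recurs as the floor for most peaks of a list. It was 1.09 to 1.40 fragments in DMSO, 2.23 to 2.34 in LPS and 2.26 to 2.39 in LPS+Skatole. The weakest peak of a DMSO list had a summit of 6.44 to 7.34 times that background, and the weakest of the other lists 4.59 to 4.94 times. Weaker sites could enter the LPS and LPS+Skatole lists, while these groups had similar genome backgrounds. The part of depth in the results below was not tested beyond the lists of equal length and the scaled lists given with them. Nothing in the labels says that the 3 libraries of a group came from separate cultures, so p-values measure the spread between these libraries, which may be technical. With 3 libraries against 3, an exact permutation test cannot give a p-value under 0.1, and the joint test of the 3 groups over 280 divisions cannot give one under 0.00357.

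All 9 genes had a peak in every library, as did 54.2% of all protein-coding genes. Prdx1 stood apart: its window held about 3 times as many peaks in LPS+Skatole as in DMSO libraries, and most of that rise lay between LPS and LPS+Skatole. Cat followed in the length of DNA covered by peaks, and the Cyba window had more peaks after LPS, though mostly near neighbouring genes. The other oxidase genes and both superoxide dismutases had peak numbers that overlapped between the groups. Together the 9 windows held 32, 27 and 30 peaks in DMSO, 44, 47 and 48 in LPS and 46, 63 and 53 in LPS+Skatole libraries. The ratio of means was 1.56 for LPS over DMSO, against 1.45 for all peaks of the lists, and 1.17 for LPS+Skatole over LPS, against 1.34 for all peaks. Without Prdx1, the other 8 genes held 37, 42 and 39 peaks in LPS and 32, 48 and 39 in LPS+Skatole libraries, a ratio of 1.01. The 5 oxidase genes held 25, 32 and 29 peaks in LPS and 22, 33 and 26 in LPS+Skatole libraries, which overlap. The 4 clearing genes held 19, 15 and 19 in LPS and 24, 30 and 27 in LPS+Skatole libraries, which do not. This separation rests on Prdx1: without it the other 3 clearing genes held 12, 10 and 10 in LPS and 10, 15 and 13 in LPS+Skatole libraries, which overlap.

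**Figure D1:**
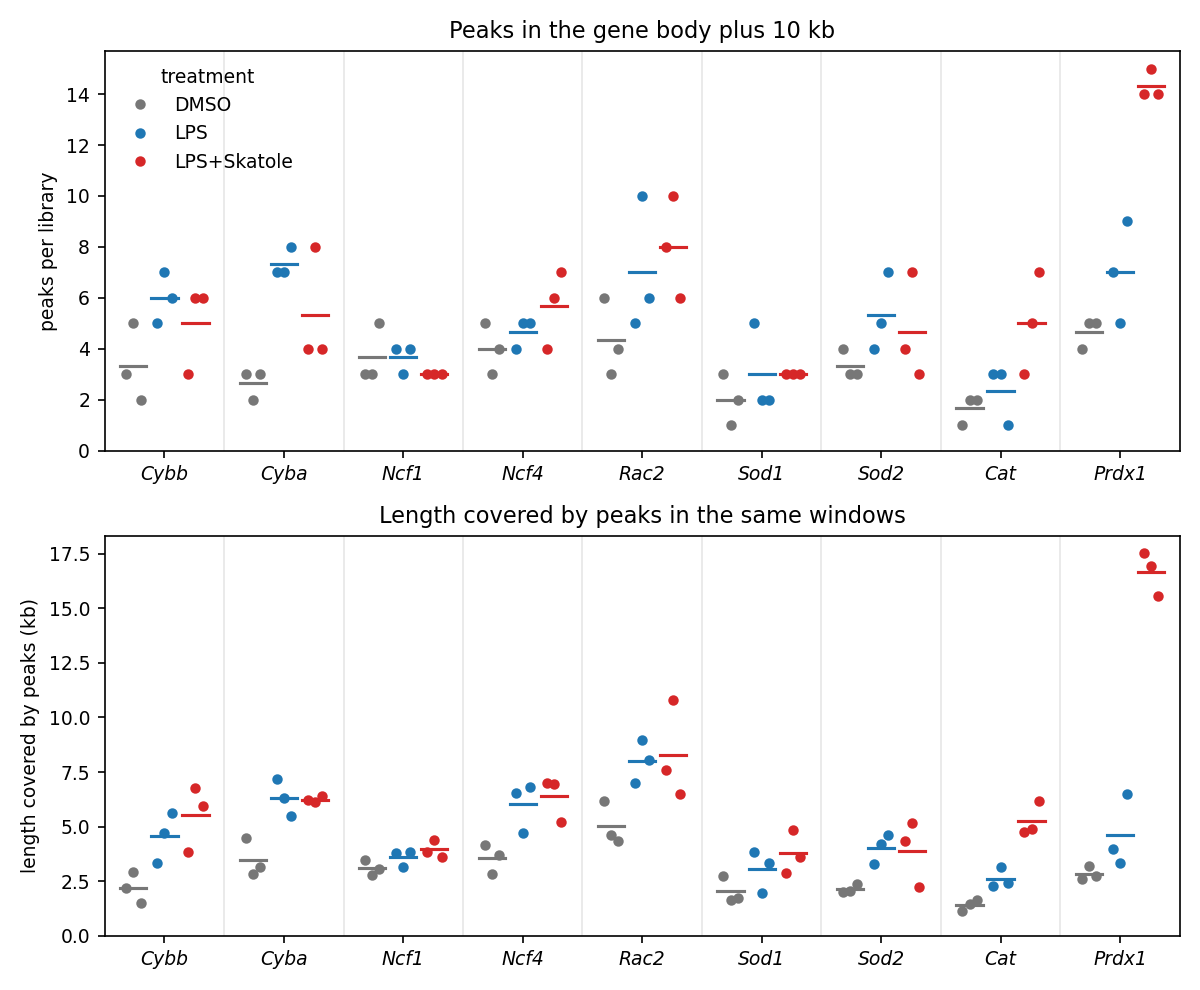
Number of peaks (upper panel, peaks per library) and length covered by peaks (lower panel, kb) in the gene body plus 10 kb of each gene. Points are libraries and bars are group means of 3 libraries. At Prdx1 the LPS+Skatole libraries lie at 14 to 15 peaks, above the LPS libraries at 5 to 9 and the DMSO libraries at 4 to 5.

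Counted over single genes, 1 of 9 had more peaks in every LPS than in every DMSO library (Cyba), against a background of 12.2% of the 19505 genes with any peak. One gene, Prdx1, had more in every LPS+Skatole than in every LPS library, against 9.10% of genes. Cyba, Cat and Prdx1 had more in every LPS+Skatole than in every DMSO library, which is 3 of 9 against 25.4%. The joint exact permutation test gave p-values under 0.05 for 2 of 9 genes, against 15.8% of all genes. No member passed after Benjamini-Hochberg adjustment over all genes (lowest adjusted p = 0.259). The shares of the members lie near those of all genes, so the list as a whole did not stand out in peak number. The length covered by peaks, a measure chosen after the peak numbers had been seen, was greater in every LPS than in every DMSO library at 7 of 9 genes, against 26.2% of all genes. With lists of equal length the order held at 3 of 9 genes, Cyba, Sod2 and Cat, against 15.9%, and with all lists brought to the lowest genome background at 6 of 9, against 18.6%. Peaks kept in these lists retained their deposited ends, so widths were not brought to equal depth. From LPS to LPS+Skatole it was greater without overlap at Cat and Prdx1, 2 of 9 genes against 16.6%, and with lists of equal length at 4 of 9, with Ncf1 and Sod1 added, against 7.83%. The joint test of covered length gave p-values under 0.05 for 4 of 9 genes (Cyba, Ncf4, Cat and Prdx1), against 28.0% of all genes.

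Among the membrane subunits, the window of Cyba on chromosome 8 had more peaks after LPS, but the gain lay near its neighbours. It held 3, 2 and 3 peaks in DMSO, 7, 7 and 8 in LPS and 4, 8 and 4 in LPS+Skatole libraries. In the full lists every LPS and LPS+Skatole library lay above every DMSO library, and LPS+Skatole overlapped LPS. The DMSO mean was 2.67 ± 0.577 (SD, n = 3), that of LPS was 7.33 ± 0.577 and that of LPS+Skatole 5.33 ± 2.31 (joint exact permutation test, p = 0.0429, adjusted p = 0.282 over all genes). With lists of equal length the DMSO libraries kept 3, 2 and 3 peaks, the LPS libraries 5, 6 and 6 and the LPS+Skatole libraries 3, 4 and 3 (joint exact permutation test, p = 0.0214). LPS then still lay above DMSO, but LPS+Skatole overlapped DMSO and lay below every LPS library, as did 2.28% of all genes. Scaled to the lowest background the numbers were 3, 2 and 3, then 6, 7 and 7, then 3, 4 and 4, with the same order, and 0.554% of all genes then had LPS+Skatole below LPS. The place of LPS+Skatole at Cyba therefore differed between the full lists and the equal-length and scaled lists. The LPS window counts lay above those of DMSO in the full, equal-length and scaled lists. Within 3 kb of the gene the numbers were 3, 2 and 2 in DMSO and 5, 4 and 3 in LPS, which overlap, and the joint p of the 3 groups was 0.496. Leaving out the peaks that lay within 1 kb of Zc3h18, Il17c or Mvd and did not overlap Cyba itself, the numbers were 2 in each DMSO library, 4, 3 and 2 in LPS and 1, 4 and 2 in LPS+Skatole, which overlap (joint exact permutation test, p = 0.607). The peaks left out numbered 1, 0 and 1 in DMSO, 3, 4 and 6 in LPS and 3, 4 and 2 in LPS+Skatole, so that a rise at Cyba itself was not detected. This alternative was added, and Zc3h18 and Il17c named, after the values were seen. The joint p of the whole window rose above 0.05 when any 1 of the DMSO or LPS libraries was left out (0.0607 to 0.143). By p-value, the strongest region in every library was chr8:122427805-122435282, which overlaps Cyba with its start and also Mvd, a gene of cholesterol synthesis. By summit count, chr8:122442866-122443862 at Mvd was higher in most libraries. The region over the Cyba start was called in all 9 libraries with summits of 74, 93 and 94 fragments in DMSO, 137, 126 and 107 in LPS and 200, 158 and 132 in LPS+Skatole. Its highest summit lay near the Cyba start in some libraries and inside the gene in others, up to 2841 bp apart. After median centring the difference was -0.14 on the log2 scale for LPS against DMSO (limma, SE 0.20, adjusted p = 0.831) and 0.09 for LPS+Skatole against LPS (SE 0.20, adjusted p = 0.913).

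Cybb, the gene of the catalytic subunit, was the single member with no region called in all 9 libraries. It held 3, 5 and 2 peaks in DMSO, 5, 7 and 6 in LPS and 3, 6 and 6 in LPS+Skatole libraries, and all groups overlapped in part (joint exact permutation test, p = 0.189). Its highest peak stood at ranks 14595.5, 11946.5 and 14850 of the DMSO lists, 8050, 10643 and 7540 of the LPS lists and 17648, 8105 and 13119 of the LPS+Skatole lists, counted from the strongest. The LPS ranks were all ahead of the DMSO ranks, and the LPS+Skatole ranks spanned both. The region over its start, chrX:9466369-9471358, was missing from 1 DMSO library only, with summits of 21 and 25 fragments in DMSO, 45, 39 and 46 in LPS and 42, 52 and 47 in LPS+Skatole. The start used here is that of the promoter table, and the gene body used for the window reaches further upstream. The region chrX:9472656-9474864, which lies before this start, still overlaps the Cybb body. Upstream of the start therefore does not mean outside the gene at Cybb. Within the region over the start, the 250 bases before the start (printed above) were covered by a peak in all 3 LPS+Skatole and in 0 of the 6 other libraries. Covered in all 3 LPS+Skatole and no LPS library were 0.192% of all promoter windows, and the pattern at Cybb was picked out after its values were seen. The peaks over these bases had summits 45 bp after, 572 bp before and 70 bp after the start, with 42, 52 and 21 fragments. The last of them stood at rank 48659.5 of its list, while the DMSO lists held at most 43450 peaks. Lists of equal length do not keep it, so the pattern in all 3 LPS+Skatole libraries holds in the full lists only. In the LPS libraries the highest summits of the region over the start lay 1529 to 1622 bp upstream of the start. That of LPS+Skatole replicate 3 also lay upstream, by 1686 bp, with 47 fragments. In DMSO it lay 1624 bp upstream in replicate 2 and 2018 bp after the start in replicate 1.

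Ncf1, the gene of the organizer p47phox, held 3, 3 and 5 peaks in DMSO, 4, 3 and 4 in LPS, and 3 in every library with skatole (joint exact permutation test, p = 0.679). Of its 4 regions, 3 were called in all 9 libraries, and one of them, chr5:134229299-134230341, had its summits 172 to 38 bp before the start. The summit there was 60, 104 and 73 fragments in DMSO, 86, 103 and 109 in LPS and 84, 114 and 87 in LPS+Skatole. These values overlap. After centring the log2 difference of LPS+Skatole from DMSO was -0.65 (limma, SE 0.22, adjusted p = 0.0583), short of the threshold of 0.05. The highest peak of the whole Ncf1 window stood further down the lists with skatole, at ranks 5336, 5038 and 10644 against 3666, 1666 and 3922 in DMSO. These ranks did not overlap (exact permutation test of all 3 groups, p = 0.0464). Taken as a percentile of the list, the same peaks gave a joint p of 0.882. The highest peak was the start peak in every library but LPS+Skatole replicate 1. In that library it was chr5:134231328-134233596, upstream of the start, with 240 fragments, and the start peak stood at rank 10586.

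At Ncf4 the peak number was 5, 3 and 4 in DMSO, 4, 5 and 5 in LPS and 4, 6 and 7 in LPS+Skatole libraries, overlapping throughout. A region inside the gene, chr15:78256971-78259024, had summits of 25, 49 and 36 fragments in DMSO, 76, 97 and 100 in LPS and 91, 115 and 65 in LPS+Skatole. The groups LPS and DMSO do not overlap in these counts, and the centred log2 difference was 0.69 (limma, SE 0.26, adjusted p = 0.183). Another region inside the gene, chr15:78248066-78248982, was seen in no DMSO library, in 1 LPS library and in every LPS+Skatole library. Its summits were 77, 112 and 79 fragments with skatole and 54 in the 1 LPS library. The length covered at Ncf4 was 3548 ± 665 bp in DMSO, 6029 ± 1143 bp in LPS and 6379 ± 1003 bp in LPS+Skatole (SD, n = 3; joint exact permutation test, p = 0.0214), and lists of equal length gave p = 0.546 and scaled lists p = 0.282.

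Rac2 held 6, 3 and 4 peaks in DMSO, 5, 10 and 6 in LPS and 8, 10 and 6 in LPS+Skatole libraries, with all groups overlapping. It was the single member with a region called in all 3 LPS and no DMSO library, chr15:78565218-78567086 with summits of 18, 17 and 33 fragments in LPS and 13 and 29 in 2 LPS+Skatole libraries. Of all 235070 merged regions 0.984% were gained in this way, so 1 of 91 at the members lies near the background. The rank of its highest peak was 1386.5, 844.5 and 1753 in LPS, ahead of 10634, 3831.5 and 1938.5 in DMSO. In LPS+Skatole the first library stood at 13618, far behind the others at 1553 and 923.5. Its peak had 95 fragments over a local background of 15.8, where the LPS peaks were scored against 2.23 to 2.34. The ranks of DMSO replicates 1 and 2 came from another region than the LPS ranks, chr15:78579426-78582485. The summit of the strongest shared region, chr15:78570707-78574503 over Rac2 and the predicted gene Gm36738, was 43, 54 and 65 fragments in DMSO, 99, 116 and 101 in LPS and 95, 117 and 142 in LPS+Skatole, and no contrast passed (lowest adjusted p of limma 0.534).

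Both superoxide dismutase genes had a called peak at their starts in every library. At Sod1 the region chr16:90218991-90221649 had summits from 154 bp before to 8 bp after the start, of 52, 90 and 78 fragments in DMSO, 120, 65 and 89 in LPS and 92, 122 and 140 in LPS+Skatole. The peak number was 3, 1 and 2, then 5, 2 and 2, then 3 in each library, and overlapped (joint exact permutation test, p = 0.7). About 5.1 kb upstream, chr16:90214721-90216705 had summits of 43, 47 and 54 fragments in LPS and 92, 96 and 84 in LPS+Skatole. These values do not overlap. The region was called in 2 of 3 DMSO libraries, so it was not in the fit over regions shared by all 9. In a limma fit over the 19799 regions called in all 6 LPS and LPS+Skatole libraries its log2 difference was 0.57 (SE 0.25, adjusted p = 0.353).

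At Sod2, the peak at the start was common to all groups, and a peak inside the gene was seen mostly after LPS. The start region chr17:13005778-13008273 had summits within 75 bp before and 107 bp after the start, of 92, 82 and 87 fragments in DMSO, 141, 143 and 158 in LPS and 149, 161 and 203 in LPS+Skatole. Centred for depth, none of its contrasts reached an absolute log2 difference over 0.12. About 2.3 kb into the gene, chr17:13009771-13010993 was called in 1 DMSO library with 23 fragments, and in all 3 LPS libraries with 115, 100 and 156 and all 3 LPS+Skatole libraries with 148, 151 and 124. The other 2 DMSO libraries had no peak there, and the LPS and LPS+Skatole values overlap. The peak number at Sod2, 4, 3 and 3, then 4, 5 and 7, then 4, 7 and 3, overlapped between all groups (joint exact permutation test, p = 0.4). The highest peak, at the start, ranked 4326, 3976 and 3992 in LPS and 1531, 1052 and 2856 in LPS+Skatole. These ranks do not overlap, but the summit over the centred libraries differed by -0.10 on the log2 scale (limma, SE 0.19, adjusted p = 0.889), while the local background against which the peak was scored was 20.4, 19.9 and 21.5 fragments in LPS and 5.32, 5.01 and 22.1 in LPS+Skatole.

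Cat, the catalase gene, gained covered length at each step. Peaks covered 1135, 1469 and 1627 bp of its window in DMSO, 2281, 3153 and 2418 bp in LPS and 4754, 4892 and 6166 bp in LPS+Skatole libraries. The 3 groups were fully separated (joint exact permutation test, p = 0.00357, the smallest possible, adjusted p = 0.0616 over all genes, with 28.0% of all genes under an unadjusted 0.05). The same p was found with lists of equal length, with the stricter threshold and after scaling to the lowest background. The peak number was 1, 2 and 2 in DMSO, 3, 3 and 1 in LPS and 3, 5 and 7 in LPS+Skatole, and its joint p was 0.0643. Peaks lay in the start region chr2:103482749-103485799 in every library, and their reach into the gene overlapped between LPS and LPS+Skatole. A region about 4.7 kb into the gene, chr2:103479701-103481042, was called in 0 DMSO libraries, in 1 LPS library with 17 fragments and in all 3 LPS+Skatole libraries with 47, 42 and 90. At the start itself the summits of 47, 44 and 39 fragments in DMSO, 61, 48 and 64 in LPS and 67, 86 and 91 in LPS+Skatole had a centred log2 difference of 0.19 for LPS+Skatole against LPS (limma, SE 0.26, adjusted p = 0.839). A change in height was not detected at the start, while the covered length of the locus grew.

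**Figure D2:**
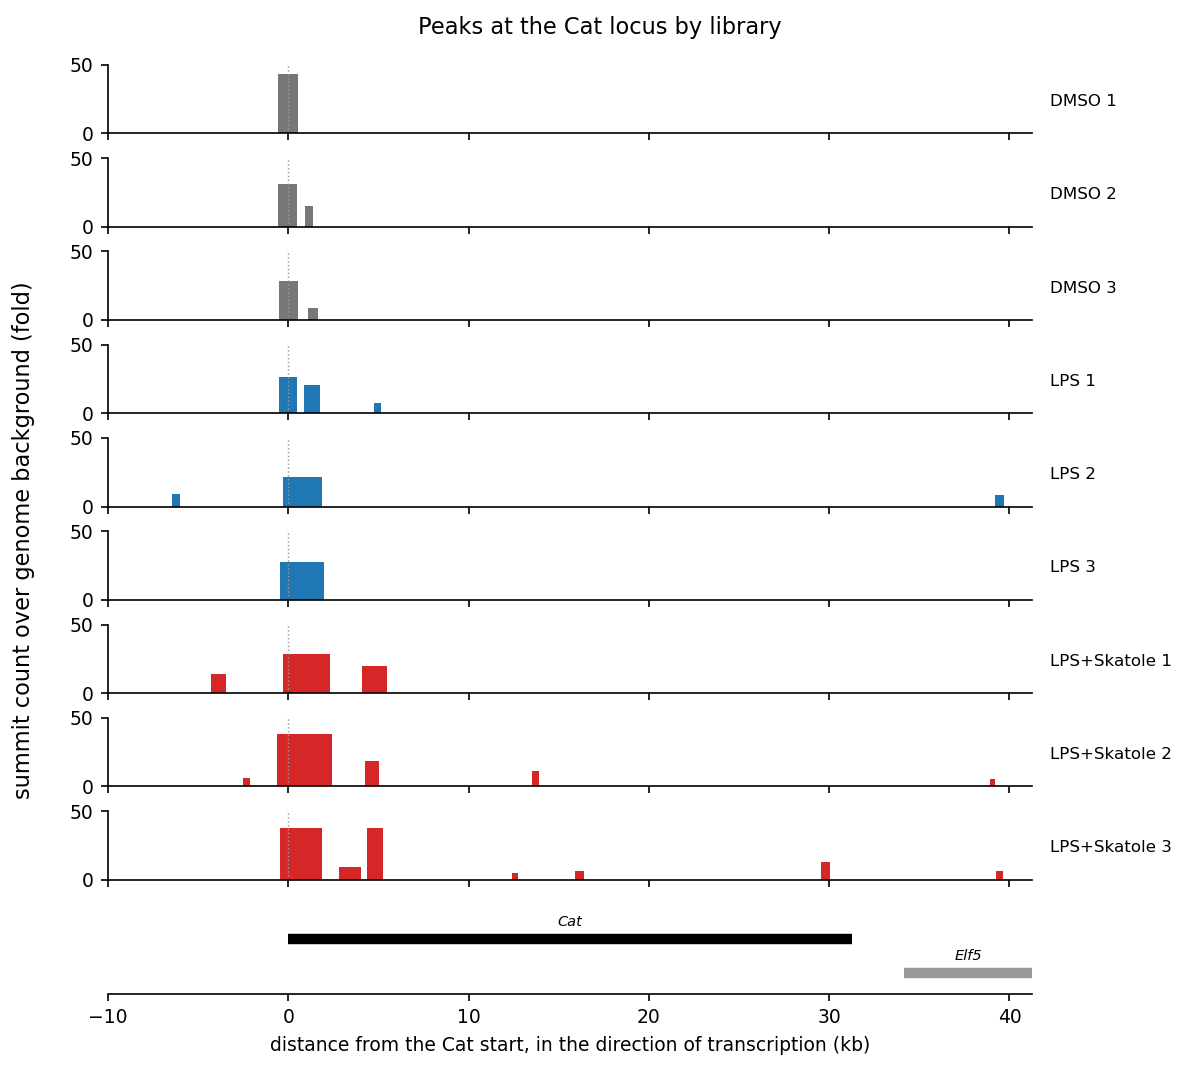
Peaks at the Cat locus in each of the 9 libraries. The horizontal axis is the distance from the Cat start in kb, each bar spans 1 peak, and its height is the summit count divided by the genome background of the library. Covered length grows from 1135 to 1627 bp in DMSO to 4754 to 6166 bp in LPS+Skatole.

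Prdx1, the gene of a thiol peroxidase, had the largest difference in peak number between LPS and LPS+Skatole of the 9 genes. It held 4, 5 and 5 peaks in DMSO, 7, 5 and 9 in LPS and 14, 15 and 14 in LPS+Skatole libraries. The LPS+Skatole libraries lay above all others, while LPS and DMSO overlapped at 5. The mean rose from 7.00 ± 2.00 in LPS to 14.3 ± 0.577 in LPS+Skatole (SD, n = 3), and the joint exact permutation test gave p = 0.0107 (adjusted p = 0.259 over all genes). A rise from LPS to LPS+Skatole at least as large, 7.33 peaks, was seen at 129 of 19505 genes (0.661%), where the median gene rose by 0.333. With lists of equal length the numbers were 6, 4 and 6 in LPS and 10, 9 and 10 in LPS+Skatole, still without overlap, and 1.76% of all genes then had this order. Scaled to the lowest background they were 7, 4 and 8 against 13, 14 and 12.

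The covered length showed the same order. Peaks covered 2607, 3190 and 2723 bp of the Prdx1 window in DMSO, 3965, 3352 and 6515 bp in LPS and 17515, 16950 and 15549 bp in LPS+Skatole. This is 7.58% to 9.27% of the window of 34402 bp in DMSO, 9.74% to 18.9% in LPS and 45.2% to 50.9% in LPS+Skatole libraries. The joint exact permutation test gave p = 0.00357, the smallest possible (adjusted p = 0.0616 over all genes). The mean increase from LPS to LPS+Skatole of 12061 bp, a ratio of 3.62, was the 4th largest of the 19505 genes, behind Pde4d, Dlg2 and Slc7a11, which are named here after their values were seen. As a share of the window, the increase of 35.1 percentage points was larger at Prdx1 than at any other gene in the table, against a median of 0.579 points, and the gene next in order, Mmachc, is its neighbour and shares much of the window. Both measures were chosen after the data had been seen.

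The peaks of the LPS+Skatole libraries formed a series across the locus, on both sides of the gene start and through the gene body. Upstream by about 6.3 kb lies chr4:116675006-116680011, within 1 kb of the gene Gm25137. This region was called in all 9 libraries, with highest summits of 22, 16 and 31 fragments in DMSO, 35, 53 and 42 in LPS and 117, 98 and 125 in LPS+Skatole. The LPS+Skatole values exceed all others. Divided by the genome background they were 20.2, 11.4 and 22.8 in DMSO, 15.3, 23.8 and 17.9 in LPS and 43.4 to 52.2 in LPS+Skatole, so that DMSO and LPS overlap (limma log2 difference 0.28, SE 0.29, adjusted p = 0.732) and LPS+Skatole stays apart. Of the 15 member regions shared by all libraries this was the one called by limma, with a log2 difference of 1.36 for LPS+Skatole against DMSO (SE 0.29, adjusted p = 0.00293). Against LPS the log2 difference was 1.08 (SE 0.29, adjusted p = 0.129), and it passed when libraries were scaled by genome background instead of median centring (log2 difference 1.35, adjusted p = 0.0173). A region about 2.3 kb upstream, chr4:116682512-116684467, had summits of 60, 76 and 62 fragments in LPS and 123, 131 and 119 in LPS+Skatole, without overlap. In the fit over the regions of this pair its log2 difference was 0.57 (limma, SE 0.23, adjusted p = 0.278). It was called in 2 DMSO libraries, with 52 and 38 fragments.

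At the Prdx1 start, whose sequence with the κB, antioxidant and AP-1 letters is printed above, the peak was present in all 9 libraries. Its summits in chr4:116684945-116686692 were 64, 93 and 77 fragments in DMSO, 115, 110 and 146 in LPS and 172, 209 and 148 in LPS+Skatole, at places from 152 bp before to 253 bp after the start. In these fragment counts LPS+Skatole stayed above LPS by a narrow margin. Divided by the genome background the groups overlapped, with 62.3 in LPS replicate 3 and 61.8 in LPS+Skatole replicate 3. The centred log2 difference of 0.20 did not pass (limma, SE 0.19, adjusted p = 0.751). The start is shared with the non-coding gene AV051173. Inside the gene, peaks were few outside the LPS+Skatole libraries. The region chr4:116691374-116694173 was called in 0 DMSO and 2 LPS libraries, with 23 and 16 fragments, and in 3 LPS+Skatole libraries with 46, 69 and 50. Next to it, chr4:116694506-116696907 had 12 fragments in 1 DMSO library, 25 and 22 in 2 LPS libraries and 42, 49 and 45 in LPS+Skatole. At the end of the gene, chr4:116698030-116701274 was called in 3 LPS+Skatole and in 0 of the 6 other libraries, with 102, 85 and 62 fragments. It was the single region gained from LPS to LPS+Skatole among the 91 of the members, against 0.507% of all regions.

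Further on, the window reaches Mmachc, a gene of cobalamin metabolism, and Ccdc163. In chr4:116702145-116704098, within Mmachc, a peak was called in 0 DMSO libraries, in 1 LPS library with 48 fragments and in 3 LPS+Skatole libraries with 90, 77 and 63. Where Mmachc meets Ccdc163, chr4:116707210-116708819 was called in all libraries with 83, 96 and 46 fragments in DMSO, 39, 36 and 179 in LPS and 146, 145 and 135 in LPS+Skatole. The third LPS library exceeded every other library there, and the others in LPS were the lowest, so that the log2 difference for LPS+Skatole against LPS was 0.85 with an adjusted p of 0.337 (limma, SE 0.34). Without LPS replicate 3 it was 1.55 and passed the threshold. Leaving out all peaks within 1 kb of Mmachc or Ccdc163, the numbers at Prdx1 were 3, 4 and 4 in DMSO, 6, 4 and 7 in LPS and 11, 13 and 11 in LPS+Skatole, with the same joint p of 0.0107.

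**Figure D3:**
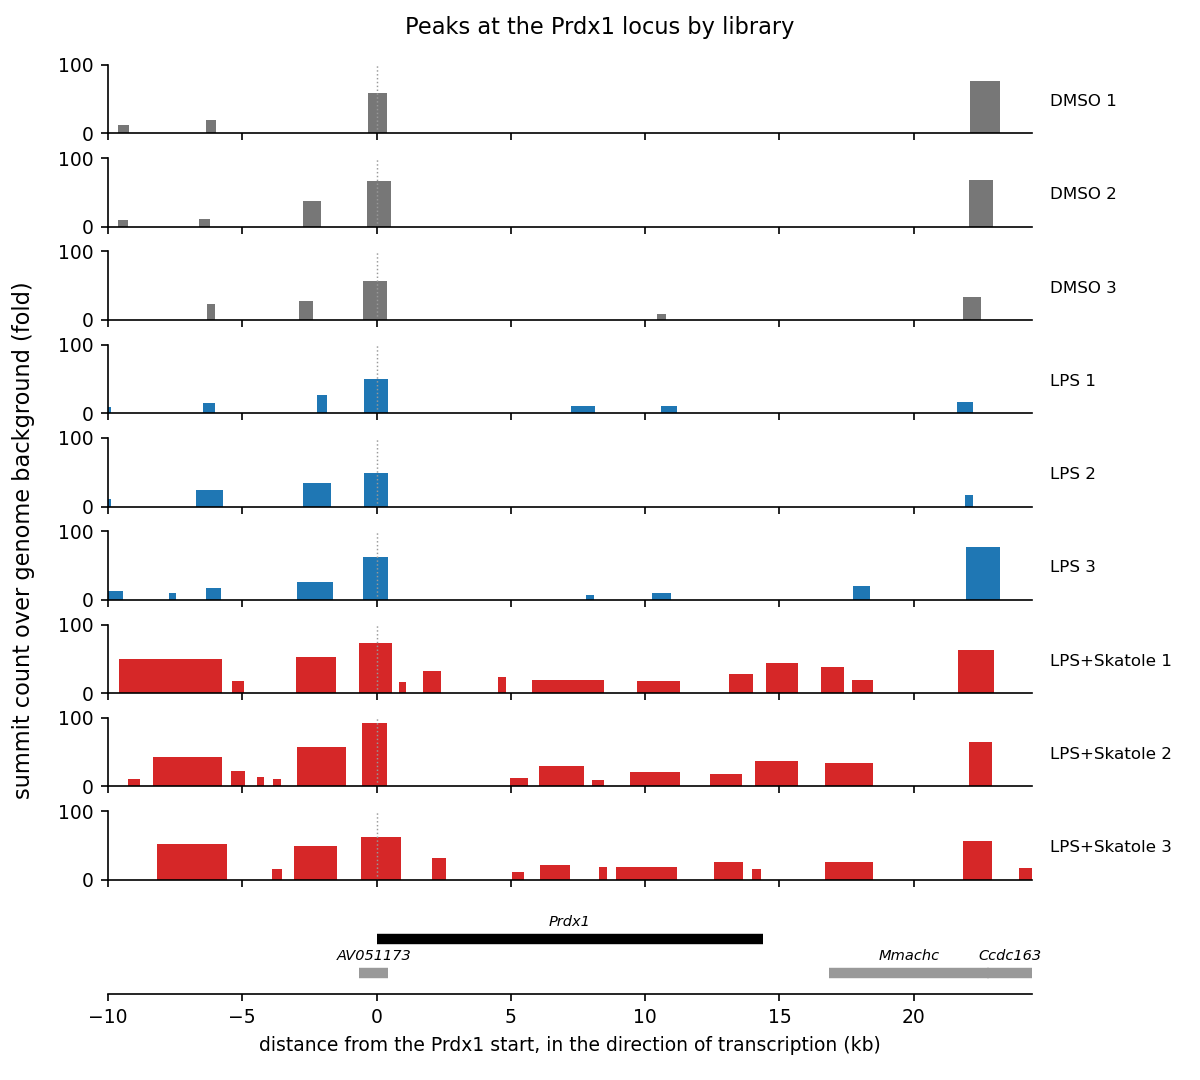
Peaks at the Prdx1 locus in each of the 9 libraries, by distance from the Prdx1 start in kb. Each bar spans 1 peak and its height is the summit count divided by the genome background of the library, with genes drawn below. The start peak is present in every library, and the LPS+Skatole libraries have further peaks upstream and through the gene, with 45.2% to 50.9% of the window covered.

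Over all 9 genes, peaks merged into 91 regions, of which 15 (16.5%) were called in all 9 libraries and 47.3% in 1 library. Of all 235070 regions, 5.88% were called in all 9 and 71.3% in 1. At the 7 promoter windows, 6 were covered by a peak in all 9 libraries, against 20.3% of all windows, the exception being Cybb. A group of 5 regions, at Ncf4, Rac2, Cat and Prdx1, was called in all 3 LPS+Skatole, at most 1 LPS and no DMSO libraries. This was 5.49% of the member regions, where 0.809% of all regions had the pattern, and it was looked for after the values had been seen. At Ncf4 it rests on a peak at rank 64667 in LPS+Skatole replicate 1. At Rac2 it rests on peaks at ranks 68921 and 55353.5 in replicates 2 and 3. These ranks lie beyond the length of every DMSO list, and no share with lists of equal length is given here.

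Summit counts at the 15 shared regions were compared in 1 limma fit over 13824 such regions of the genome. From DMSO to LPS, 0 of the 15 were called, while 1.27% of all regions were called higher and 0.499% lower. At an unadjusted p under 0.05 there were 2 of the 15, against 1969 of all 13824 regions. From LPS to LPS+Skatole 0 were called, against 0.0506% higher and 0.123% lower. At an unadjusted p under 0.05 there were 3 of the 15, against 1501 of all 13824 regions. In the fit over the regions of this pair, 0 of 23 member regions were called, with 47 called of 19799. At an unadjusted p under 0.05 there were 5 of the 23, and the count over all regions of that fit is not given here. From DMSO to LPS+Skatole 1 was called, higher, against 3.88% higher and 4.21% lower. The median log2 difference over the 15 was 0.00, 0.03 and -0.01 in these contrasts, and 8, 8 and 7 of them were above 0. Scaling by genome background moves every region by -0.21 for LPS against DMSO, 0.28 for LPS+Skatole against LPS and 0.07 for LPS+Skatole against DMSO on the log2 scale, and 3, 12 and 10 of the 15 were then above 0. These counts follow from adding 1 constant to every region of a contrast.

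**Figure D4:**
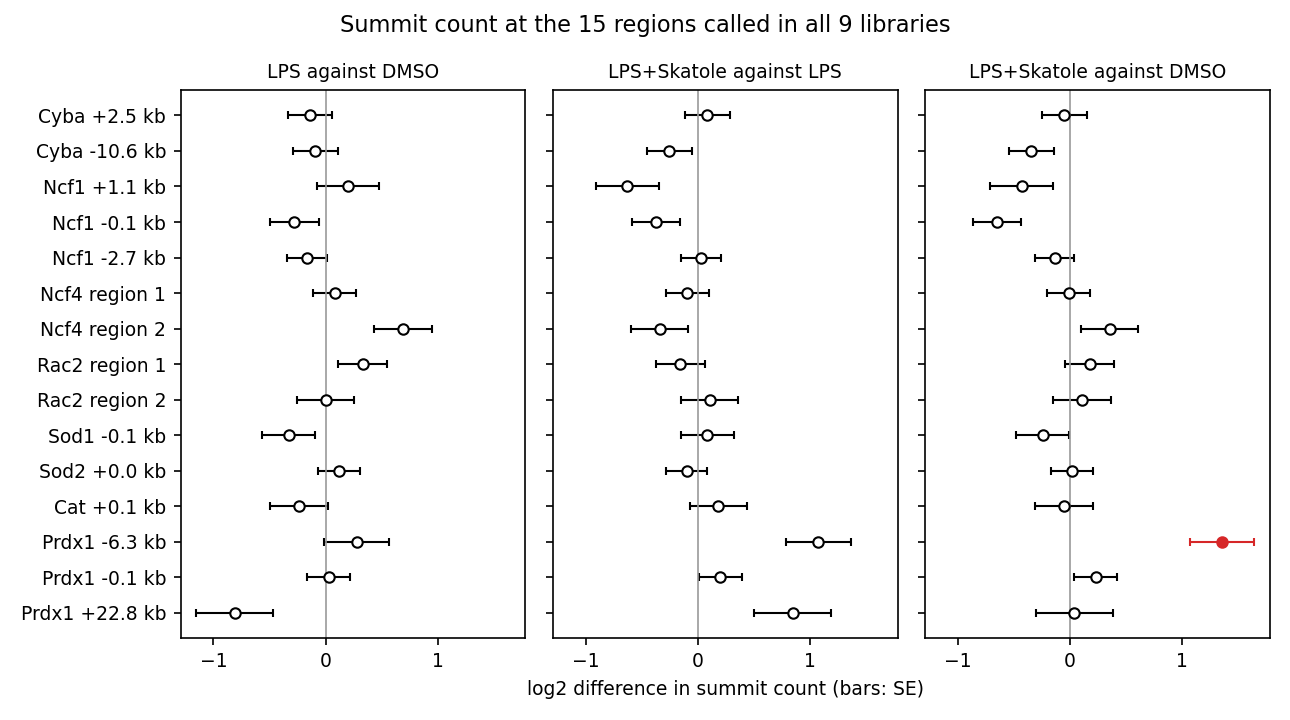
Log2 difference in summit count, median centred, at the 15 member regions called in all 9 libraries, in 3 contrasts of 3 libraries each. Labels give the median distance of the summit from the gene start, or a running number where the start is not in the table. Points are estimates, bars are SE, and the filled red point is the region with an adjusted p under 0.05, 1.36 at the upstream Prdx1 region.

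The place of a locus within a list was described by the rank of its highest peak by p-value. This rank is a best value over the peaks of a locus, it comes from lists of unequal length, and it depends on the local background as well as on the summit, so it is no measure of summit height. Cyba had the best rank of the 9 genes in 6 of 9 libraries, at 950, 736.5 and 679 in DMSO, 649, 857 and 1468 in LPS and 214, 543.5 and 1187 in LPS+Skatole. Its groups overlapped. The LPS ranks were ahead of the DMSO ranks without overlap at 3 of 9 genes, Cybb, Ncf4 and Rac2, at 0.63, 0.33 and 0.30 times the DMSO rank on geometric average. This was so at 7.09% of the 11870 genes with a peak in all 9 libraries, and, with the rank as a percentile of the list, at 3 of 9 genes against 19.98%. The LPS+Skatole ranks were ahead of the LPS ranks without overlap at 2 of 9 genes, Sod2 and Prdx1, at 0.41 and 0.31 times, against 5.40% of genes, and as percentiles at 2 of 9 against 14.6%. At Prdx1 the ranks were 14794, 4286 and 10191 in DMSO, 19381, 9558.5 and 6926 in LPS and 2734, 4332 and 3266 in LPS+Skatole, and the highest peak was the upstream region in all 3 LPS+Skatole libraries. Each of these pairs had p = 0.1 in an exact permutation test, the smallest possible. The joint p was under 0.05 at 1 of 9 genes, Ncf1, against 12.9% of genes, and the LPS+Skatole ranks were behind the DMSO ranks without overlap at the same gene, against 14.6%. As a percentile, Ncf1 had no such order, and the 1 gene with a joint p under 0.05 was Cybb instead (exact permutation test, p = 0.0357), against 19.8% of genes.

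**Figure D5:**
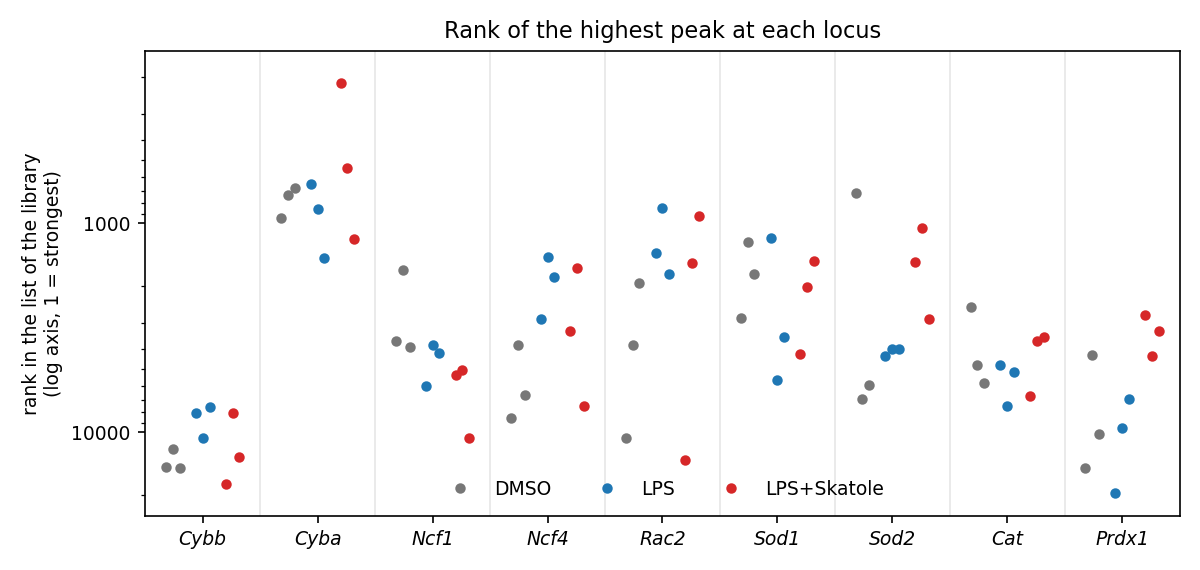
Rank of the highest peak at each gene in the list of each library, on a log axis with the strongest at the top. Points are libraries, 3 a group. At Prdx1 the LPS+Skatole libraries lie at ranks 2734 to 4332 and the LPS libraries at 6926 to 19381.

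Other genes of the same systems give the setting. Of 12 other NADPH oxidase genes, 5 had a peak in every library. Rac1, the more widely expressed relative of Rac2, held 4, 3 and 4 peaks in DMSO and 5, 8 and 6 in LPS. The non-phagocyte oxidases Nox1, with 4, 5 and 2 peaks in LPS and 7, 9 and 6 in LPS+Skatole, and Nox4, with 0 in each LPS and 1, 2 and 2 in LPS+Skatole libraries, had more with skatole. In sum 2 of the 12 had more peaks in every LPS than DMSO library, against 12.2% of all genes, and 3 had more in every LPS+Skatole than LPS library, against 9.10%. None had fewer, against 0.364% and 0.774%.

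Of 21 other clearing genes, 15 had a peak in every library and Sod3 had none in any. Prdx3, Txnrd1 and Gsr had more peaks in every LPS than in every DMSO library, and Prdx4 had fewer, which are 3 and 1 of the 21 against 12.2% and 0.364% of genes. At Txnrd1, the cytosolic thioredoxin reductase, the numbers were 5, 4 and 7 in DMSO and 9, 12 and 12 in LPS, and at Gsr, glutathione reductase, 5, 5 and 4 and then 6, 7 and 9. Prdx5, Srxn1 and Glrx had more in every LPS+Skatole than in every LPS library and Gpx1 had fewer, again 3 and 1 of 21, against 9.10% and 0.774% of genes. Srxn1 encodes sulfiredoxin, which repairs overoxidized peroxiredoxins such as Prdx1. It held 1, 2 and 2 peaks in DMSO, 3, 3 and 2 in LPS and 7, 6 and 5 in LPS+Skatole (joint exact permutation test, p = 0.0107, adjusted p = 0.259 over all genes). At Gpx1, glutathione peroxidase 1, the numbers were 6, 5 and 5 in LPS and 4, 3 and 4 in LPS+Skatole. The median difference from LPS to LPS+Skatole was 1.00 peak over the other oxidase genes, 0.667 over the other clearing genes, 0 over the 9 members and 0.333 over all genes.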

How the data were processed

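p65 CUT&Tag peak lists of 9 libraries of RAW264.7 cells (3 DMSO, 3 LPS, 3 LPS+Skatole) were analysed. The Blank sample was not analysed here. Peak lists in narrowPeak format were deposited by the authors, 1 for each library. Each deposited line gives a score (10 times the −log10 p, cut to a whole number), a fold (a ratio of summit pileup to local background), a −log10 p, a −log10 q and the summit's offset in bp. The submitters' processing notes name the build mm10 and, with no role, fastp 0.20.1, HISAT2 2.1.0 and StringTie 2.0. Peak caller, duplicate removal and control were not given in the sources used here. The lowest −log10 p was just over 5 in every list.

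Only peaks of the autosomes, X and Y entered. The number of fragments at a summit was worked back out of the deposited fold and −log10 p, taking the fold as (count + 1)/(background + 1) and p as a Poisson upper tail. It came out whole, within 0.05, for 99.993% to 99.997% of peaks. Depth is known from the genome background only. Counts of peaks, covered bases and ranks (from the strongest −log10 p) were taken per gene body plus 10 kb, with genes from a RefSeq table of GRCm38.p6. That build was checked on the lists: 35.5% of gene starts had a summit within 250 bp, against 11.4% and 11.1% after shifts of 10000 bp. Peaks of all lists were merged where they overlapped by at least 1 bp. The table gives no exons, and exons and introns are not distinguished.

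Pairs of groups were compared with two-sided exact permutation tests on means (on log10 for ranks) and the 3 groups jointly with an exact permutation test on the between-group sum of squares, with Benjamini-Hochberg adjustment over all genes. Recovered summit counts at regions called in all 9 libraries were compared as log2(count + 1), median centred, with limma 3.58.1 (trend, R 4.3.3) and adjusted over all such regions. Recovery, permutation tests and limma fit were tested on simulated data. Python 3.11.15, numpy 2.4.6, scipy 1.17.1 and statsmodels 0.14.6 were used. All 9 genes are named, genes of 2 further lists (12 other NADPH oxidase, 21 other clearing genes) only where groups do not overlap, and neighbours within 1 kb of a member's highest peak. The values of 1 further gene that the rule would name are not reported here. Members and lists were chosen with earlier results of these data known. Alternatives were lists of equal length, a summit of at least 8 times the background, scaling to the lowest background, a window of 3 kb, summits inside the window, another rank, pseudocount 0.5, a mean count of at least 20, no trend, regions called in the 6 libraries of a pair, a replicate block, and each library left out. Covered length, the totals without Prdx1 and the Prdx1 and Cyba windows without their neighbours were added after the data were seen.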

Additional observations from a re-analysis of the deposited data

How the results depend on the processing

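The number of peaks at the 9 genes for LPS over DMSO had a ratio of 1.16 with lists of equal length, 1.34 with the stricter threshold, 1.34 after scaling and 1.39 within 3 kb, below 1.56, and for LPS+Skatole over DMSO it was 1.23 with lists of equal length, below 1.82. Genes with more peaks in every LPS than DMSO library numbered 0 within 3 kb, against 9.83% of all genes. With a library left out they numbered 1 to 3 (3 without DMSO replicate 1 or LPS replicate 1). Shares of all genes with a library left out are not given here. For LPS+Skatole over LPS these genes numbered 1 to 3 with a library left out (3 without LPS+Skatole replicate 1), and over DMSO 3 to 5 (5 without DMSO replicate 1 or LPS+Skatole replicate 1). Over DMSO there was 1 with lists of equal length, against 3.55% of all genes, and 1 within 3 kb, against 20.8%. With lists of equal length, covered length was greater at 3 genes for LPS over DMSO, against 15.9% of all genes, and at 4 for LPS+Skatole over LPS, against 7.83%. The latter numbered 2 to 4 with a library left out (4 without LPS+Skatole replicate 3). In exact permutation tests the direction of LPS+Skatole against DMSO turned, with no p under 0.05, for the peak number with lists of equal length at Cybb (joint p = 0.636) and Rac2 (joint p = 1), and for the rank as a percentile at Sod1 (joint p = 0.564) and Cat (joint p = 0.154). The direction of the rank of LPS+Skatole against DMSO also turned at 5 genes when 1 library was left out. It turned at Cybb without LPS+Skatole replicate 2, at Cyba and Sod1 without LPS+Skatole replicate 1 and at Rac2 without LPS+Skatole replicate 3. At Cat it turned without DMSO replicate 1 or LPS+Skatole replicate 1. Exact permutation tests with 1 library left out, whether or not the direction turned, gave a range of joint p at each gene. The range was 0.0393 to 0.346 at Cybb, 0.0321 to 0.832 at Cyba, 0.0714 to 0.629 at Rac2, 0.221 to 0.886 at Sod1 and 0.325 to 0.843 at Cat. The cause was not tested.

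Of the 15 shared regions, limma called 0 to 1 for LPS against DMSO and 0 to 1 for LPS+Skatole against LPS with a library left out, in both the region between Mmachc and Ccdc163 without LPS replicate 3 (log2 differences -1.51 and 1.55). It called 1 to 2 for LPS+Skatole against DMSO, with the Ncf1 start added without LPS+Skatole replicate 2 (log2 difference -0.80). Scaling by genome background called 1 region for LPS+Skatole against LPS, upstream of Prdx1. Over all regions, limma called 245, 24 and 1119 in the contrasts LPS against DMSO, LPS+Skatole against LPS and LPS+Skatole against DMSO, 84, 0 and 613 without trend, and 715, 205 and 1003 with background scaling. In the second contrast it called 47 among regions shared by the 6 libraries of the pair.

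Replicate numbers are in the labels, but libraries with the same number did not deviate together (correlations -0.010 to 0.014), so the numbers do not pair them. With a replicate block, where the smallest possible p is 0.0278, the exact permutation test of peak number gave p = 0.111 at Cyba and p = 0.0556 at Prdx1, and that of covered length p = 0.0833 at Cyba and Ncf4 and p = 0.0278 at Cybb, Cat and Prdx1. With the block, limma called 197, 20 and 1081 regions, and the upstream Prdx1 region had an adjusted p of 0.161 against LPS and 0.00495 against DMSO.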
